A study of Mus musculus with 20 samples.

Results

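The 32 genes described here are p53 target and DNA damage genes, a list of known targets of the transcription factor p53, p53 itself (Trp53) and genes of DNA damage repair. All 32 were found among the 55414 gene identifiers of the count table, and all 32 were among the 15624 genes with enough counts to be tested. They fall into 7 genes of cell-cycle arrest and growth control, 3 genes of p53 and its feedback, 12 genes of cell death, 6 genes of DNA repair and nucleotide supply and 4 genes of metabolism and autophagy.

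RNA was sequenced from 20 cultures of primary mouse cardiac fibroblasts, the matrix-producing cells of the heart, in 5 groups of 4. The treatment protocol in the labels describes cells with a floxed Hyal2 gene on both alleles at passage P2, whereas the genotype label reads wild type C57BL/6J. All cultures were starved of serum for 24 h and exposed to an adenovirus for 5 h, so the controls carry a virus too, and were kept for a further 48 h, with the added growth factor dosed at 20 ng/mL. Cultures received a control virus (GFP), a virus with Cre that deletes exon 2 of Hyal2 (Cre) or a virus that overexpresses Hyal2 (Hyal2). In GFP_TGFB and Cre_TGFB, TGFB followed the control or the Cre virus. The protocol names bFGF and TGFb "respectively", so the absence of TGFB and the presence of bFGF in the other groups cannot be told apart. By the labels, numbers 1 and 2 are female and numbers 3 and 4 male. Each number carries 1 library-name stem through all groups and is called an isolate here; whether an isolate came from 1 heart is not given in the labels.

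p53 is a transcription factor that is made continuously and destroyed quickly. Mdm2, a ubiquitin ligase and itself a p53 target, marks it for degradation, and kinases activated by damaged DNA stop that turnover. Stabilised p53 switches on genes that halt the cell cycle, aid repair or start cell death, and in cultured fibroblasts it is best known for arrest and senescence. Several of these genes also answer to other signals, among them Cdkn1a, which SMAD proteins can activate. RNA levels of targets are not a measure of p53 protein.

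Promoter sequences are shown for members with a motif match, so that a reader can see the letters behind each count. RefSeq promoter sequences (build GRCm38.p6) were matched for 24 of the 32 members. No entry was found for Perp, Pmaip1, Tnfrsf10b, Ddb2, Xpc, Rrm2b, Trp53inp1 or Zmat3. The 250 bases upstream of each start were searched on both strands. An exact match to the p53 decamer, the unit that p53 response elements carry in tandem, was found for 11 members: Aen, Bax, Ccng1, Cdkn1a, Ei24, Gadd45a, Mdm2, Polk, Rps27l, Sesn1 and Trp53. That was 11 of the 31 windows of members, and 7.13% of all 32851 windows of the same length held one. A tandem pair of decamers with a spacer of at most 13 bases was found for 1 member, Cdkn1a, and in 21 of all windows (0.0639%). The core letters CATG, which can lie within a decamer, were found for 8 members and in 53.9% of all windows. In the 4 sequences below capitals mark the decamer matches. Cdkn1a lies on the plus strand at chr17:29090729-29090978, Mdm2 on the minus strand at chr10:117710759-117711008, Gadd45a on the minus strand at chr6:67037408-67037657 and Sesn1 on the plus strand at chr10:41887189-41887438.
Cdkn1a: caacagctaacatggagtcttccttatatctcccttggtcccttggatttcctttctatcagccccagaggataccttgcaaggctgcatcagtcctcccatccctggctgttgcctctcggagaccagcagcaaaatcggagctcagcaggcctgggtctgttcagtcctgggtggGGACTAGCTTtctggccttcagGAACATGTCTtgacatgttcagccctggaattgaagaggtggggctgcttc
Mdm2: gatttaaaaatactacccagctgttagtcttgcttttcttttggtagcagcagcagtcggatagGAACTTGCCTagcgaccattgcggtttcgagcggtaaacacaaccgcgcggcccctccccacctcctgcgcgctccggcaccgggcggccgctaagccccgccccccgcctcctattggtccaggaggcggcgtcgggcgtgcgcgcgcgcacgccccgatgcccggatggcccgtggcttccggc
Gadd45a: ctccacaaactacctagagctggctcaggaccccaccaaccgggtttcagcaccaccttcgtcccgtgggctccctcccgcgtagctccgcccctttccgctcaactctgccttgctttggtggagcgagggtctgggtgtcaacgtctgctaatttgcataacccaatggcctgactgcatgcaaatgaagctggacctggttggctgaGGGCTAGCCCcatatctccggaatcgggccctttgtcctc
Sesn1: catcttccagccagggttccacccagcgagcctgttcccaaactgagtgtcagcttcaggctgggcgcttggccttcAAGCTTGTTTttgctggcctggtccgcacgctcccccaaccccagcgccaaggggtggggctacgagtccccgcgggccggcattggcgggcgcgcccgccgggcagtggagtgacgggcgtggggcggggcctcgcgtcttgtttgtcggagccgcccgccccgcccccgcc
The Cdkn1a matches begin 73 and 51 bases upstream of the start that the window shown precedes, with a spacer of 12 bases. The 24 members have 31 windows, so a member can have more than 1 start. Whether a start shown here is the main one of its gene was not examined. The letters directly after the second match miss the decamer at their first letter only. Exact matches alone were counted, so elements with a mismatch or outside the 250 bases were not found. The single matches begin 186 bases upstream in Mdm2, 40 in Gadd45a and 173 in Sesn1. The first 3 of these genes rose with TGFB and Sesn1 fell, as described below, so a match was present upstream of genes of either direction.

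A cyclic AMP response element, searched as TGACGTCA, was found for Btg2 and Plk2 and in 1.55% of all windows. An AP-1 element, searched as TGANTCA, was found for Fas and in 6.75% of all windows. These 2 motifs were added after the values were seen. Plk2 (plus strand, chr13:110394794-110395043) and Btg2 (minus strand, chr1:134079156-134079405) are shown because they hold TGACGTCA. Both rose more than 2-fold with TGFB, and neither had a p53 decamer in the window. Plk3 also rose more than 2-fold, and its window held neither a decamer nor TGACGTCA. Capitals mark TGACGTCA, which begins 62 bases upstream in Plk2 and 166 in Btg2.
Plk2: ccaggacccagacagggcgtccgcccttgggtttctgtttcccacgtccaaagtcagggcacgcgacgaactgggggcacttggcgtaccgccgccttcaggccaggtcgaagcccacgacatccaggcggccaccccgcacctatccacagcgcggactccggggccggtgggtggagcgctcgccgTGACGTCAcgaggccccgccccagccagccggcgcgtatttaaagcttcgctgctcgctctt
Btg2: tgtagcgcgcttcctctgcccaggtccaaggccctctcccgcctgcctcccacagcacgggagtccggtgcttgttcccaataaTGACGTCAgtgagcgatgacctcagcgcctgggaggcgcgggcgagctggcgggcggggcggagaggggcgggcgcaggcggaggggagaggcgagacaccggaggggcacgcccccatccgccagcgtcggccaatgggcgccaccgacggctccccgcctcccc
A match is a description of letters, and binding was not measured.

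Library totals ranged from 38.6 to 104.8 M counts. Levels are given as CPM, the counts of a gene per M counts of its library after scaling with TMM factors, and p-values are adjusted by the Benjamini-Hochberg method over all genes tested. As a check of the labels, Hyal2 lay at 41.2 ± 3.46 CPM (SD, n = 4) in GFP, 10.4 ± 2.9 in Cre and 934 ± 466 in Hyal2, and counts cover the whole gene and not exon 2 alone. All 12 fibroblast markers exceeded 1 CPM in all groups, with a summed level of 53100 to 84800 CPM per library. Summed leukocyte markers lay at 225 to 526 CPM in GFP and 128 to 319 in GFP_TGFB, with 10 of 13 markers over 1 CPM and Cd3e, Cd79a and S100a8 under 1 CPM in every library. Summed endothelial markers lay at 31.9 to 36.9 CPM in GFP and 11.2 to 17.2 in GFP_TGFB, with Vwf and Cldn5 under 1 CPM in every library. Pericyte and smooth muscle markers summed to 477 to 575 and 539 to 613 CPM, and cardiomyocyte markers to at most 4.57 CPM in any library. The part of these lists in the results was not tested. In RNA from whole cultures, fewer cells of a type and less RNA per cell cannot be told apart.

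In control cultures the members spanned a wide range of levels when counts were divided by exon length. The cyclin-dependent kinase inhibitor Cdkn1a (p21) had the highest level at 149 CPM per kilobase (141 to 160 over 4 GFP libraries). Ccng1, which encodes cyclin G1, followed at 146 (135 to 159), Phlda3, an inhibitor of AKT signalling, at 132, the ribosomal protein gene Rps27l at 127 and the mitochondrial pore protein gene Bax at 95.9. The ranges of Cdkn1a and Ccng1 overlapped, so their order was not resolved. Trp53 was ninth at 20.0 CPM per kilobase. Perp, an epithelial membrane protein gene, was last at 0.345, with 0.451 to 1.40 CPM over the libraries without TGFB. With TGFB (GFP_TGFB) Cdkn1a and Ccng1 kept the first places. Plk2 went from rank 8 to rank 5, Pmaip1 from rank 26 to rank 9, Fas from rank 10 to rank 20 and Dram1 from rank 12 to rank 26.

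GFP_TGFB was set against GFP to ask how these genes responded to TGFB, a profibrotic cytokine that turns fibroblasts into contractile myofibroblasts. Of the 32 members, edgeR called 26, or 81.2%, at an adjusted p under 0.05, and called 55.3% of all genes tested. It called 19 members higher (26.6% of all genes) and 7 lower (28.6% of all genes). At 2-fold or more, 5 members were higher (6.27% of all genes) and 3 lower (12.6%). The groups of 4 did not overlap for 24 members (50.2% of all genes), 18 of them higher with TGFB and 6 lower. The median log2 fold change of the members was 0.27, beside -0.02 over all genes tested. With the replicate block, 27 members were called, the addition being Ei24, and 9667 of all 15624 genes tested were called.

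The members did not move in 1 direction. Counts by role follow, each from a few genes, and differences between roles were not tested. Over all genes tested, edgeR called 26.6% higher and 28.6% lower. All 7 genes of arrest and growth control were higher with TGFB, with a median log2 fold change of 1.24. Among the 12 genes of cell death 6 were higher, 1 was lower and 5 were not called. Thus 58.3% of this role were called, near the 55.3% of all genes tested. The 6 repair and nucleotide genes gave 3 higher and 2 lower. Of the 4 metabolism and autophagy genes 1 was higher and 3 were lower, with a median of -0.91.

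**Figure D1:**
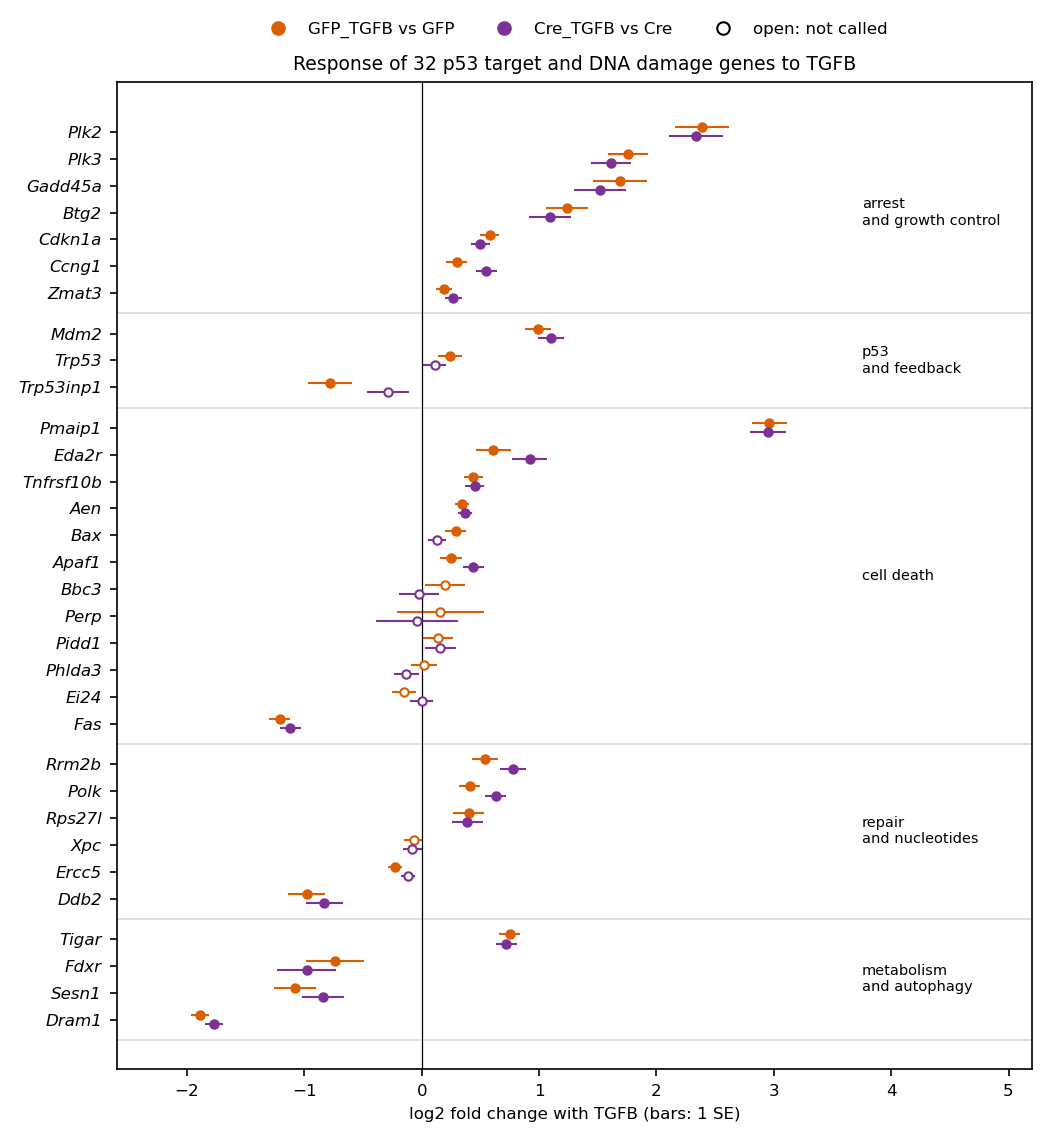
Log2 fold change with TGFB (x axis, bars of 1 SE) for each of the 32 genes, grouped by role, with the GFP virus (orange) and the Cre virus (purple). Filled points were called at an edgeR adjusted p under 0.05 and open points were not: all 7 arrest and growth control genes lie to the right, and Dram1, Fas, Sesn1, Ddb2 and Fdxr lie to the left with both viruses.

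Among the arrest genes, Cdkn1a stood at 569, 532, 515 and 500 CPM in GFP replicates 1 to 4 and at 889, 743, 735 and 797 CPM in GFP_TGFB. In Cre cultures it stood at 647, 605, 579 and 585 CPM without TGFB and at 896, 869, 780 and 883 with it. Each culture with TGFB was above all 4 cultures without it, with either virus. The log2 fold change was 0.58 (SE 0.08, edgeR adjusted p = 2.85e-06) with the GFP virus and 0.50 (SE 0.08, edgeR adjusted p = 1.43e-05) with the Cre virus.

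Plk2, a polo-like kinase that is induced by stress and slows entry into division, stood at 105, 138, 78.2 and 86.6 CPM in GFP and at 440, 463, 575 and 667 CPM in GFP_TGFB. In Cre it lay at 101, 136, 73.2 and 104 CPM and in Cre_TGFB at 444, 447, 564 and 645 CPM. The groups were far apart, and within the TGFB groups the female isolates (1 and 2) were below the male ones (3 and 4). Plk2 rose 5.25-fold with the GFP virus (log2 fold change 2.39, SE 0.23, edgeR adjusted p = 5.47e-08) and 5.07-fold with the Cre virus (2.34, SE 0.23, edgeR adjusted p = 7.31e-08).

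Its relative Plk3, a stress-responsive kinase that can phosphorylate p53, stood at 14.4, 13.8, 9.68 and 9.16 CPM in GFP and at 37.8, 37.9, 43.6 and 40.3 CPM in GFP_TGFB. In Cre the values were 14.9, 15.6, 9.65 and 9.31 CPM and in Cre_TGFB 36.9, 39.9, 35.7 and 38.9 CPM. Without TGFB the female isolates were above the male ones, and all cultures with TGFB were above all without. Plk3 rose 3.39-fold (log2 1.76, SE 0.17, edgeR adjusted p = 7.05e-08) and, with the Cre virus, 3.04-fold (log2 1.61, SE 0.17, edgeR adjusted p = 2.09e-07).

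Gadd45a, a stress sensor that binds the cyclin-dependent kinase CDK1 and PCNA, was at 25.7, 25.1, 25.9 and 27.1 CPM in GFP and at 58.0, 52.0, 123 and 103 CPM in GFP_TGFB. The Cre cultures had 23.1, 25.2, 27.2 and 24.1 CPM and the Cre_TGFB cultures 53.7, 51.2, 92.6 and 88.7 CPM. The isolates were alike without TGFB and split with it, the male ones higher. Gadd45a rose 3.23-fold (log2 1.69, SE 0.23, edgeR adjusted p = 3.63e-06) and, with the Cre virus, 2.87-fold (log2 1.52, SE 0.22, edgeR adjusted p = 1.16e-05). Its exons share 19.1% of their bases with a gene on the opposite strand, E230016M11Rik, and the strand setting of the counting is not given in the sources used here.

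Btg2, an antiproliferative cofactor of mRNA deadenylation, was at 32, 39.4, 25.4 and 23.5 CPM in GFP and at 68.6, 72.1, 64.9 and 78.3 CPM in GFP_TGFB. It was at 36.7, 43.3, 25.1 and 27.6 CPM in Cre and at 65.4, 81.1, 68.0 and 67.9 CPM in Cre_TGFB. Every culture with TGFB exceeded every culture without it. Btg2 rose 2.36-fold with the GFP virus (log2 1.24, SE 0.18, edgeR adjusted p = 8.82e-06) and 2.12-fold with the Cre virus (log2 1.09, SE 0.18, edgeR adjusted p = 3.44e-05). The remaining arrest genes rose less: Ccng1 by 0.30 and 0.55 and Zmat3, an RNA-binding regulator of splicing, by 0.19 and 0.27 with the GFP and Cre virus, on the log2 scale. The Ccng1 call with the GFP virus was lost without isolate 1 (edgeR adjusted p = 0.0602) but not when that fit had the replicate block (0.028). The Zmat3 call with the GFP virus was lost without GFP replicate 1 (edgeR adjusted p = 0.0745) or GFP replicate 2 (0.0602), without GFP_TGFB replicate 3 (0.105) or GFP_TGFB replicate 4 (0.0801).

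Trp53 itself changed little. It stood at 81.3, 97.9, 73.9 and 69.7 CPM in GFP and at 95.6, 93.8, 94.7 and 97.4 CPM in GFP_TGFB, and the groups overlapped through GFP replicate 2. The difference, 0.24 on the log2 scale (SE 0.10, edgeR adjusted p = 0.0487), passed the threshold narrowly, and the call was lost without GFP replicate 1 (0.0756), 3 (0.137) or 4 (0.161) and without any 1 GFP_TGFB replicate (0.0669 to 0.0918). Pairing by the replicate block gave 0.00745, and that call was lost without isolate 3 (0.0579) or 4 (0.0964). In Cre and Cre_TGFB cultures the values were 90.3, 98.0, 78.6 and 78.8 CPM without TGFB and 90.5, 104, 88.5 and 90.7 CPM with it, and 0.11 was not called (SE 0.10, edgeR adjusted p = 0.357).

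Mdm2 stood at 118, 141, 112 and 116 CPM in GFP and at 228, 269, 230 and 245 CPM in GFP_TGFB. In Cre it was at 120, 146, 103 and 126 CPM and in Cre_TGFB at 250, 257, 258 and 293 CPM. The level about doubled in each isolate, with no overlap. Its log2 fold change was 0.99 (SE 0.11, edgeR adjusted p = 5.03e-07) with the GFP virus and 1.10 (SE 0.11, edgeR adjusted p = 1.51e-07) with the Cre virus. The third gene of this group, Trp53inp1, a nuclear protein that promotes p53 activity and autophagy, fell by 0.78 on the log2 scale with the GFP virus (SE 0.19, edgeR adjusted p = 0.00149), from 52.7 to 111 CPM in GFP to 42.3 to 48.5 CPM in GFP_TGFB. Isolate 4 had the highest level in GFP, 111 CPM, and without it the log2 fold change was -0.51 (edgeR adjusted p = 0.0386), and within isolates 1 to 4 the differences were -0.50, -0.12, -0.87 and -1.38. With the Cre virus its value was -0.29 and was not called (SE 0.18, edgeR adjusted p = 0.187).

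**Figure D2:**
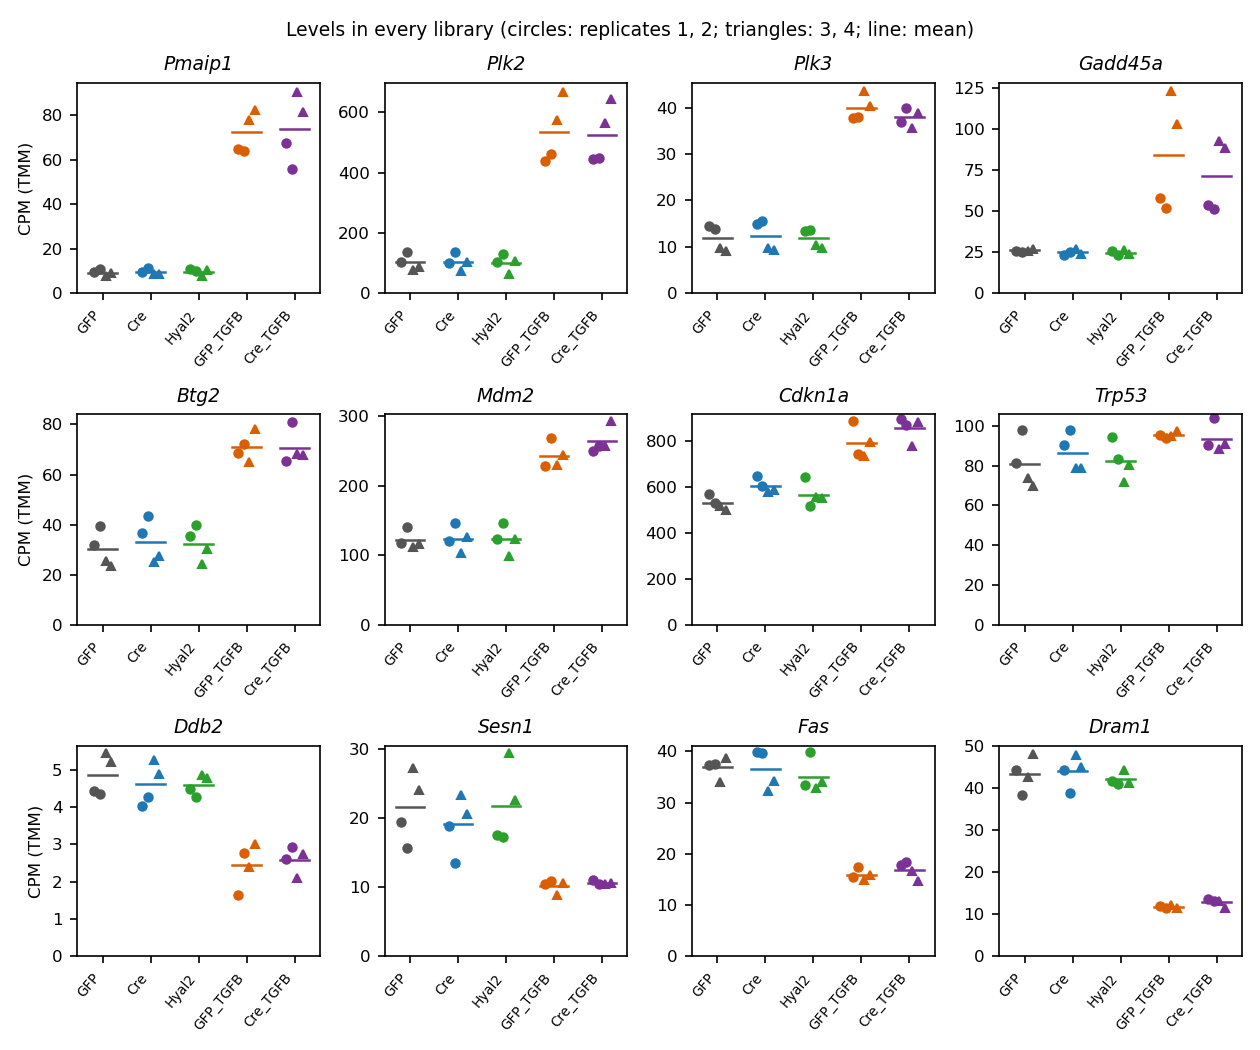
Level in CPM (y axis, linear, from 0) of 12 genes in every library of the 5 groups, with circles for replicates 1 and 2 (female), triangles for replicates 3 and 4 (male) and a line at the group mean. The TGFB groups of Pmaip1 (55.9 to 90.3 CPM) and Plk2 (440 to 667 CPM) lie far above the rest, those of Dram1 (11.4 to 13.6 CPM) far below, and Trp53 overlaps between groups.

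The cell death genes split. Pmaip1 (Noxa), a BH3-only protein that neutralises the survival factor MCL1, had the largest change of all 32 members with either virus. It stood at 9.64, 10.7, 7.63 and 8.97 CPM in GFP and at 64.7, 63.9, 77.9 and 82.2 CPM in GFP_TGFB. The values were 9.60, 11.1, 8.83 and 8.58 CPM in Cre and 67.5, 55.9, 90.3 and 81.5 CPM in Cre_TGFB. The lowest culture with TGFB was thus several times above the highest without it. Pmaip1 rose 7.79-fold with the GFP virus (log2 fold change 2.96, SE 0.15, edgeR adjusted p = 1.58e-11) and 7.72-fold with the Cre virus (2.95, SE 0.15, edgeR adjusted p = 1.60e-11).

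Fas, the death receptor for FAS ligand, moved the other way. It was at 37.3, 37.5, 34.1 and 38.8 CPM in GFP and at 15.4, 17.4, 14.9 and 15.9 CPM in GFP_TGFB, and at 39.8, 39.7, 32.3 and 34.2 CPM in Cre and 17.8, 18.3, 16.6 and 14.6 CPM in Cre_TGFB. No culture with TGFB reached the lowest one without it. Fas fell by 1.21 on the log2 scale with the GFP virus (SE 0.09, edgeR adjusted p = 1.59e-09) and by 1.12 with the Cre virus (SE 0.09, edgeR adjusted p = 4.28e-09).

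The other receptors among the cell death genes rose. Tnfrsf10b, the mouse TRAIL receptor, rose by 0.44 and 0.45, and Eda2r, a TNF-family receptor for ectodysplasin A2, by 0.61 and 0.92 on the log2 scale with the GFP and Cre virus. Aen, an apoptosis-enhancing nuclease, rose by 0.34 and 0.37, and Apaf1, the scaffold of the apoptosome, by 0.25 and 0.44. Bax rose by 0.29 with the GFP virus (edgeR adjusted p = 0.00769) and had 0.13 with the Cre virus, which was not called (edgeR adjusted p = 0.199). The Bax call was lost without isolate 4 (edgeR adjusted p = 0.0785). Bax shares 12.2% of its exon bases with Gm45808 on the same strand.

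The call of Apaf1 with the GFP virus was lost without GFP replicate 1 (edgeR adjusted p = 0.0662), 2 (0.0659) or 3 (0.0735) and without GFP_TGFB replicate 2 (0.119) or 4 (0.0587). Without isolate 2 its value was 0.15 (edgeR adjusted p = 0.212, and 0.048 with the replicate block), and with the block Apaf1 stayed called without any 1 isolate. The BH3-only gene Bbc3 (Puma), which like Pmaip1 is a textbook mediator of p53-driven death, lay at 12.4 to 17.6 CPM in GFP and 13.7 to 20.1 in GFP_TGFB, and its log2 fold change of 0.20 was not called (SE 0.17, edgeR adjusted p = 0.338). Phlda3 (0.02), Pidd1, a scaffold for caspase-2 activation (0.14), Ei24, a protein of the endoplasmic reticulum (-0.15), and Perp (0.16) were also not called with the GFP virus, nor with the Cre virus.

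Among repair and nucleotide genes, Ddb2, the damage sensor that recruits nucleotide excision repair to ultraviolet lesions, was at 4.34 to 5.45 CPM in GFP and at 1.63 to 3 CPM in GFP_TGFB. It fell by 0.98 on the log2 scale (SE 0.16, edgeR adjusted p = 3.24e-05) and by 0.83 with the Cre virus (SE 0.16, edgeR adjusted p = 1.60e-04), without overlap in either pair. Ddb2 shares 23.8% of its exon bases with Acp2 on the opposite strand. The other damage sensor of that pathway, Xpc, lay at 15.7 to 18.5 CPM in GFP and 14.6 to 17.6 in GFP_TGFB and was not called (log2 fold change -0.07, SE 0.08, edgeR adjusted p = 0.488). The repair endonuclease gene Ercc5 fell by 0.23 with the GFP virus (edgeR adjusted p = 0.00462), and its value of -0.12 with the Cre virus was not called (edgeR adjusted p = 0.115). The first call was lost without isolate 3 (edgeR adjusted p = 0.103).

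The other 3 genes of this role rose with both viruses. Rrm2b, the p53-inducible subunit of ribonucleotide reductase, rose by 0.54 and 0.78 on the log2 scale. Polk, a translesion DNA polymerase, rose by 0.41 and 0.63. Rps27l rose by 0.40 and 0.39, and its reads may be shared with its close paralog Rps27. Its call with the GFP virus was lost without isolate 1 (edgeR adjusted p = 0.0587) or 3 (0.0789), and that with the Cre virus without isolate 3 (0.0513), and each of these held with the replicate block. Without Cre replicate 4 the Cre virus value was 0.25 (edgeR adjusted p = 0.0313).

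The metabolism and autophagy genes included the strongest fall. Dram1, a lysosomal membrane protein that promotes autophagy, was at 44.4, 38.4, 42.7 and 48.2 CPM in GFP and at 12, 11.5, 12.1 and 11.4 CPM in GFP_TGFB. It was at 44.4, 38.8, 47.9 and 45.0 CPM in Cre and at 13.6, 13.1, 13.2 and 11.5 CPM in Cre_TGFB. The cultures with TGFB lay close together and far below the rest. Dram1 fell by 1.89 on the log2 scale with the GFP virus (SE 0.08, edgeR adjusted p = 8.29e-13) and by 1.77 with the Cre virus (SE 0.08, edgeR adjusted p = 1.68e-12).

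Sesn1, a sestrin that restrains mTORC1 and limits oxidative stress, was at 19.4, 15.7, 27.2 and 24.1 CPM in GFP and at 10.4, 10.9, 8.88 and 10.6 CPM in GFP_TGFB. In Cre it was at 18.9, 13.5, 23.4 and 20.6 CPM and in Cre_TGFB at 11, 10.5, 10.4 and 10.6 CPM. The isolates differed without TGFB and converged with it, and the groups did not overlap. Sesn1 fell by 1.08 on the log2 scale (SE 0.18, edgeR adjusted p = 5.29e-05) and by 0.84 with the Cre virus (SE 0.18, edgeR adjusted p = 5.57e-04).

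Fdxr, ferredoxin reductase of mitochondrial steroid and iron-sulfur metabolism, ran from 12.8 to 26.2 CPM in GFP and from 10.6 to 14.5 in GFP_TGFB, with overlap, although it was lower in 4 of 4 isolates. It fell by 0.74 on the log2 scale (SE 0.25, edgeR adjusted p = 0.0156), a call that was lost without GFP replicate 3 (0.0595) or GFP replicate 4 (0.0586) and without isolates 1, 3 or 4 (0.058 to 0.0854) when libraries were not paired, and by 0.98 with the Cre virus (SE 0.25, edgeR adjusted p = 0.00237). Fdxr with the GFP virus had an edgeR adjusted p of 8.79e-05 with the replicate block, and there it stayed called without any 1 isolate. Tigar, a fructose bisphosphatase that slows glycolysis, was the 1 gene of this role that rose, by 0.75 (SE 0.09, edgeR adjusted p = 1.99e-06) and 0.72 (SE 0.09, edgeR adjusted p = 2.76e-06) with the GFP and Cre virus.

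The comparison of Cre_TGFB with Cre asks for the same response after Hyal2 deletion. Of the 32 members, edgeR called 22 (56.5% of all genes), 17 higher (27.5% of all genes) and 5 lower (29% of all genes). At 2-fold or more, 6 were higher (6.16% of all genes) and 2 lower (13% of all genes), and 22 did not overlap between the groups (51.2% of all genes). The median was 0.32, beside -0.00 over all genes tested. The 2 viruses used separate control cultures of the same isolates. The difference between the responses was tested as an interaction of Cre and TGFB, in which edgeR called 0 members (0% of all genes tested), DESeq2 called 0, and 0 members had an unadjusted p under 0.05. With the replicate block 0 members were called and 3, Ccng1, Polk and Trp53inp1, had an unadjusted p under 0.05 (edgeR adjusted p = 0.774 for each). The largest difference was that of Trp53inp1, 0.49 (SE 0.26, edgeR adjusted p = 1), so the 4 members called with the GFP virus alone, Trp53, Bax, Trp53inp1 and Ercc5, were not shown to differ between the viruses.

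Without TGFB, Cre was set against GFP to ask whether Hyal2 deletion changed these genes. Both groups carry an adenovirus, and an effect of Cre recombinase and one of Hyal2 loss cannot be told apart. edgeR called 0 of the 32 members (0.0064% of all genes), DESeq2 called 0, and 1 member, Cdkn1a, had an unadjusted p under 0.05. Cdkn1a stood at 579 to 647 CPM in Cre and 500 to 569 in GFP and was the 1 member whose groups did not overlap (3.68% of all genes). It was higher in 4 of 4 isolates, by 0.17 to 0.23 on the log2 scale within an isolate, with a fitted difference of 0.19 (SE 0.08, edgeR adjusted p = 0.926). With the replicate block 0 members were called (0.269% of all genes), and the adjusted p of Cdkn1a was 0.171.

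The signs of the other members were mixed. Within isolates, 6 members were higher in 4 of 4 with Cre and 6 were lower in 4 of 4. The share of all genes with such agreement was not counted, so these counts are not read as a result about the members. The higher ones were Cdkn1a, Trp53, Bbc3, Bax, Phlda3 and Xpc, and the lower ones Ccng1, Eda2r, Polk, Ddb2, Rrm2b and Sesn1. Fitted differences ran from -0.23 (Trp53inp1) to 0.37 (Perp, at 0.515 to 1.32 CPM over both groups), with a median of 0.02. Of 27 interferon-stimulated genes, edgeR called 0 in Cre against GFP (5 with the replicate block), with 27 log2 fold changes above 0 and a median of 1.01. All 27 had an unadjusted p under 0.05 without and with the block, beside 711 and 1361 of all 15624 genes tested. Of 30 cell-cycle genes known to be repressed through p21 and the DREAM complex it called 0 (0 with the block), with 30 values below 0 and a median of -0.23. Of these, 1 had an unadjusted p under 0.05 without the block and 8 with it. The part of these lists in the values of the members was not tested.

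**Figure D3:**
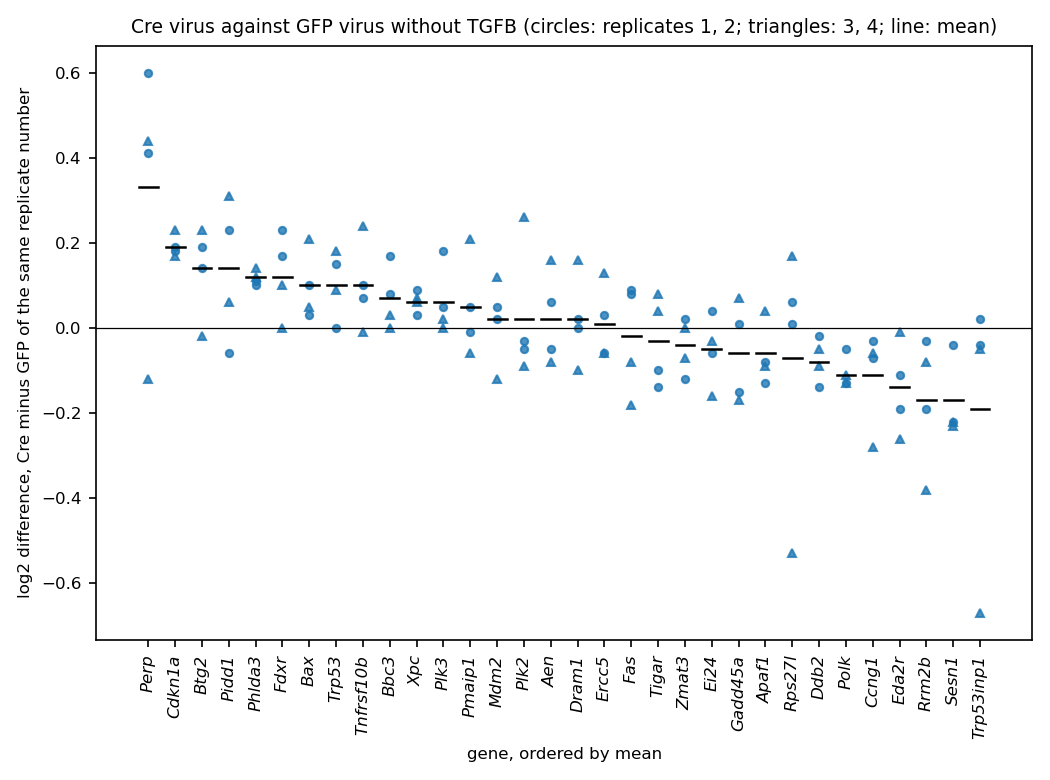
Log2 difference between the Cre and GFP cultures of the same replicate number without TGFB (y axis) for each of the 32 genes, ordered by the mean (line), with circles for replicates 1 and 2 and triangles for replicates 3 and 4. Cdkn1a has 4 points close together at 0.17 to 0.23, and most other genes scatter on both sides of 0.

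With TGFB, Cre_TGFB against GFP_TGFB gave 0 members called by edgeR (0.0064% of all genes) or by DESeq2, 0 with an unadjusted p under 0.05 and 0 without overlap (1.57% of all genes). Differences ran from -0.23 (Gadd45a, SE 0.22) to 0.26 (Trp53inp1, SE 0.18). Cdkn1a was higher in 4 of 4 isolates there too, by 0.01 to 0.23 on the log2 scale within an isolate. Its fitted difference was 0.12 (SE 0.08, edgeR adjusted p = 1). The share of all genes with such agreement was not counted. With the replicate block 0 members were called and 2, Cdkn1a and Tnfrsf10b, had an unadjusted p under 0.05. Of the 30 genes known to be repressed through p21 and DREAM, 0 were called with or without the block. In this list 29 lay below 0, with a median of -0.40. An unadjusted p under 0.05 was seen for 5 without the block and 22 with it. Over all 15624 genes tested it was seen for 223 and 477. The Cre cultures of the 2 comparisons come from the same isolates.

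Hyal2 overexpression against GFP gave 0 members called by edgeR (0.0064% of all genes) or by DESeq2, 0 with an unadjusted p under 0.05 and 0 without overlap (1.25% of all genes). Cdkn1a lay at 516 to 642 CPM in Hyal2, overlapping GFP, and Trp53 at 71.9 to 94.2 CPM. Differences ran from -0.15 (Rps27l) to 0.70 (Perp, at 0.451 to 1.40 CPM in Hyal2). The replicate block gave 0 calls, and 1 member, Perp, had an unadjusted p under 0.05 there. The Cre and Hyal2 comparisons share the GFP cultures.

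The size of the TGFB response differed between isolates for a few members. This comparison of male minus female isolates was added after the values were seen, and with 2 isolates of each sex, sex and isolate cannot be told apart beyond these 4. With the GFP virus edgeR called 3 members (1.38% of all genes), and 8 had an unadjusted p under 0.05. The Gadd45a response was 1.18 and 1.05 in the female and 2.24 and 1.92 in the male isolates (log2), a difference of 0.97 (SE 0.14, edgeR adjusted p = 0.00529). For Plk3 the responses were 1.39 and 1.46 in the female and 2.17 and 2.13 in the male isolates, a difference of 0.73 (SE 0.12, edgeR adjusted p = 0.0105). Trp53inp1 had -0.50 and -0.12 in the female and -0.87 and -1.38 in the male isolates, a difference of -0.83 (SE 0.19, edgeR adjusted p = 0.0407).

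The levels behind these differences were not alike. For Gadd45a the isolates were alike without TGFB and the male ones were higher with it. For Plk3 and Trp53inp1 the isolates differed mainly without TGFB, Plk3 being lower and Trp53inp1 higher in the male ones. With the Cre virus edgeR called 1 member (0.128% of all genes), Plk3, with a difference of 0.64 (SE 0.11, edgeR adjusted p = 0.0394), 6 had an unadjusted p under 0.05, and Gadd45a had 0.70 (SE 0.14, edgeR adjusted p = 0.053). The calls rest on few isolates: with the GFP virus 0 members were called without replicate 2 or without replicate 3 and 1 without replicate 4, and with the Cre virus 0 were called without replicate 2, 3 or 4, and 2 others, Gadd45a and Pmaip1, without replicate 1. With the replicate block 5 members were called with each virus. These were Gadd45a, Plk3, Plk2 and Btg2 with both, Trp53inp1 with the GFP virus and Pmaip1 with the Cre virus. For this comparison, shares of all genes were not counted with the block or for the unadjusted p. Those counts are therefore not read as a result about the members.

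**Figure D4:**
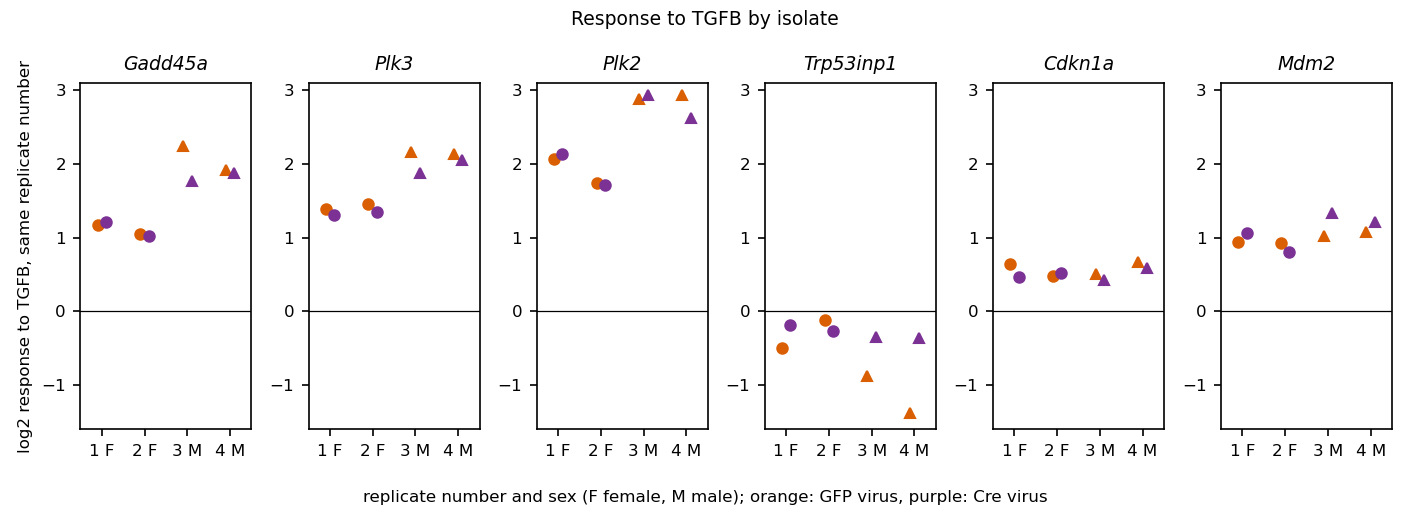
Log2 response to TGFB within an isolate (y axis) against replicate number and sex (x axis; circles female, triangles male) for 6 genes, with the GFP virus in orange and the Cre virus in purple. The Gadd45a and Plk3 points of isolates 3 and 4 lie above those of isolates 1 and 2 with both viruses, while Cdkn1a responses lie between 0.43 and 0.67 in every isolate.

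Genes around p53 outside the 32 members were counted from lists, with the GFP virus and edgeR's adjusted p. The lists were chosen with earlier results of these data known. Over all genes tested, 26.6% were higher and 28.6% lower with the GFP virus. With the Cre virus the shares were 27.5% and 29%. Of 26 tested regulators of p53 and of damage signalling, 6 were higher and 6 lower with TGFB. The 2 ASPP-family genes Ppp1r13l and Ppp1r13b, whose products bind p53, rose by 1.82 and 0.81 on the log2 scale. Ppm1d, the phosphatase that switches damage signalling off, fell by 0.46, and Mdc1, a scaffold at broken DNA, fell by 0.27. The kinase gene Atm (0.18) and Mdm4 (0.05), the partner of Mdm2, were not called. With the Cre virus 8 of the 26 were higher and 6 lower.

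Of 43 further p53 targets tested, 12 were higher and 16 lower, with a median of -0.08, and with the Cre virus 14 were higher and 17 lower. The phosphatase gene Dusp14 rose by 2.63 and the stress cytokine gene Gdf15 by 2.07, whereas Kitl, the ligand of the KIT receptor, fell by 2.10 and the ribonuclease gene Rnase4 by 1.60. Among 24 tested genes of other cyclin-dependent kinase inhibitors and the RB axis, 5 were higher and 9 lower. Cdkn2b (p15), a classical TGFB target, rose by 2.64, from 30.8 ± 2.34 to 192 ± 26.7 CPM (SD, n = 4 each), beside 2.39 for Plk2, the highest of the 7 arrest genes. Cdkn2a, which encodes p16 and ARF, rose by 0.88, and Cdkn2c and Rbl2 fell by 0.78 and 0.52. In the Cre pair 6 of the 24 were higher and 9 lower.

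Of the 30 genes known to be repressed through p21 and DREAM, 26 were lower with TGFB and 0 higher, with a median of -1.42. The part of p21 in these falls was not tested. Among them Ccnb2, a mitotic cyclin, fell by 1.85 and the spindle checkpoint kinase gene Bub1b by 1.44. In the Cre pair 26 of the 30 were lower and 0 higher.

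Repair genes outside the members went both ways. Of 22 other nucleotide excision repair genes 9 were higher and 1 lower: the endonuclease partner Ercc1 rose by 0.99 and Rad23b by 0.56, while Xpa fell by 0.30. Of 30 double-strand break repair genes 7 were higher and 10 lower, with Xrcc6 (Ku70) up by 0.83 and Lig3 by 0.52, and Rad51b and Paxx lower, having fallen by 0.95 and 0.86. Of 16 other translesion and nucleotide supply genes 3 were higher and 6 lower. There Dctpp1 and Dut, which clear unwanted nucleotides, rose by 0.54 and 0.49, and thymidine kinase Tk1 and the dNTP hydrolase gene Samhd1 fell by 1.91 and 1.11. In the Cre pair the counts were 11 higher and 2 lower for excision repair, 6 and 9 for break repair, and 4 and 5 for translesion and nucleotide supply.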

How the data were processed

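RNA-seq of 20 cultures was analysed (NEBNext Ultra II, per the labels' protocols). The authors deposited raw counts per Ensembl gene, made with HTSeq 0.10.0 after FastQC 0.10.1 on GRCm39 (mm39), per the submitters' processing notes. Sources used here do not give the aligner, annotation release or strand setting. Symbols were matched for 52081 of 55414 identifiers, and exon lengths and shared bases came from a GENCODE annotation of GRCm38.

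Counts were tested with edgeR 4.0.16 (R 4.3.3): robust quasi-likelihood F test, all 20 libraries in 1 fit, a mean per group, TMM factors. filterByExpr (minimum count 10 in 4 libraries, minimum total 15) kept 15624 of 31062 genes with counts. A call is an adjusted p (Benjamini-Hochberg, all genes) under 0.05, and an SE is the absolute log2 fold change over the square root of F. The steps were tested on simulated data in which a small set of genes changed in random directions. The change with TGFB was far broader, so that simulation could not test the TMM scaling under it. Alternatives were DESeq2 1.42.0, RLE factors, no filter, no robust fit, only the groups compared, a replicate block, and each library or isolate left out.

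Replicate numbers pair the libraries, as library-name stems recur across groups. Deviations from group means correlated at 0.114 to 0.712 in all 40 same-number pairs (median 0.41). In 120 other pairs they correlated at -0.606 to 0.442 (median -0.249), so the ranges overlapped. No 2 replicates of a group agreed within sampling noise. The labels do not say that replicates are separate animals, so p-values measure the spread between these cultures. Members, lists and tests were chosen with earlier results of these data known. Named are Trp53, Cdkn1a and Mdm2, members called at 2-fold or more with all values, other members by range and fold change, and of each pathway list the 2 called genes with the smallest p in each direction. Atm and Mdm4 were named after their values were seen. One further marker list is not reported here.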

Additional observations from a re-analysis of the deposited data

Results flagged for a closer look

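In 13 of 160 groups of 4 libraries, 1 library stood apart from the other 3 by Dixon's criterion, which sets the gap to the nearest library against the group's range. Chance alone marks about 1 in 20 groups. In the Cre_TGFB group, replicate 2 was high for Btg2 at 81.1 CPM and for Trp53 at 104 CPM, and replicate 3 was low for Tnfrsf10b at 83.2 CPM. Among the Cre libraries, replicate 2 was high for Ccng1 at 529 CPM and for Perp at 1.32 CPM. Replicate 4 was high for Apaf1 in GFP (41.9 CPM) and Cre (43.3 CPM) and for Polk in GFP (37 CPM) and Cre (33.7 CPM). For Eda2r, GFP_TGFB replicate 1 was low at 65.8 CPM. Among the Hyal2 libraries, replicate 1 was low for Zmat3 at 141 CPM, replicate 2 high for Fas at 39.8 CPM and replicate 4 low for Rps27l at 73.8 CPM.

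The response to TGFB differed between male and female isolates by edgeR for 3 genes with the GFP virus, Gadd45a (0.97 on the log2 scale), Plk3 (0.73) and Trp53inp1 (-0.83). With the Cre virus it differed for Plk3 (0.64).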

How the results depend on the processing

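For GFP_TGFB against GFP the number of members called was 26, and 20 to 27 over 22 alternatives, and 18 members were called in all of these. For Cre_TGFB against Cre it was 22, and 21 to 23, with 21 called in all. The replicate block gave 27 and 22, with Ei24 added in the first (edgeR adjusted p = 0.044), and DESeq2 26 and 22. Over all 15624 genes tested the block called 9667 and 9942. The 8 GFP-virus calls that were lost in at least 1 alternative were those of Trp53, Zmat3, Apaf1, Fdxr, Rps27l, Ercc5, Bax and Ccng1, and with the Cre virus that of Rps27l. No called member changed direction in any alternative. The counts of 0 for Cre against GFP, Cre_TGFB against GFP_TGFB, Hyal2 against GFP and the interaction stayed 0 in all alternatives. The male minus female counts moved. With the replicate block 5 members were called with each virus, and the share of all genes was not counted there. With 1 isolate left out, 0 to 3 were called with the GFP virus and 0 to 2 with the Cre virus. Perp, at under 1.5 CPM, is the member whose depth limits its estimate most (SE 0.37 with TGFB and the GFP virus).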

Other observations

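Lists related to the effects of p53 moved with TGFB as follows, with the GFP virus and edgeR's adjusted p. Over all genes tested, 26.6% were higher and 28.6% lower. Of 26 tested other BCL2 family and caspase genes 7 were higher and 9 lower. The BH3-only gene Bmf fell by 2.36 on the log2 scale, in contrast to Pmaip1, and the apoptosis inhibitor gene Birc2 fell by 0.86. Bok, a BAX relative, rose by 1.34 and Cflar, an inhibitor of caspase-8 activation, by 0.67. Of 18 senescence-associated genes 6 were higher and 8 lower. The stromelysin gene Mmp3 went from 1790 ± 170 to 95.5 ± 9.46 CPM (SD, n = 4 each) and the chemokine gene Cxcl1 from 9.63 ± 1.57 to 0.369 ± 0.184 CPM, while Cdkn2b and Gdf15 of the same list rose.

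Of 13 genes that act beside sestrins and Tigar in oxidative stress and glycolytic control, 4 were higher and 3 lower. Heme oxygenase Hmox1 rose by 1.01 and Pfkfb4, a regulator of glycolysis, by 1.49. Sesn3 fell by 0.89, in the direction of Sesn1, and Gclm of glutathione synthesis fell by 0.49. Of 27 interferon-stimulated genes 21 were lower and 0 higher, and the nucleic acid sensor gene Zbp1 fell by 3.33 and Dhx58 by 1.88. With the Cre virus 27 of 27 were lower with TGFB.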
